A study of Mus musculus with 18 samples.

Results

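The genes described here are 7 members of the plasminogen activator system and of the tissue factor and thrombomodulin arms of clotting, found by symbol among the 27131 rows of the expression table: Plat, Plau, Plaur, Serpine2, Serpinb2, F3 and Thbd. They were chosen from a list of names with the difference between the study's groups in view, so that difference is described for them without a test. Of the 7, 6 had a mean of at least 1 FPKM over all libraries and are among the 13976 genes tested, while Serpinb2 did not reach that level. The study compared colon tissue of untreated C57BL/6 mice in 9 libraries with the genotype Hif2a +/+ (WT) and 9 with Hif2a LFL (HIF2). By the labels, HIF2 is overexpressed in the colon of the latter, whose allele the design text spells LSL. Nothing in the sources used here gives the promoter that drives it, the age of the mice or whether each library is a separate mouse, so tests measure the spread between these libraries, which may be technical. Values are FPKM, which scale a gene's fragments by transcript length and library size, and a log2 difference is HIF2 minus WT of log2(FPKM + 1), a scale that understates changes of low genes.

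Plasminogen circulates as an inactive protein and is cut to plasmin, the enzyme that dissolves fibrin and helps cells to degrade matrix. Tissue-type activator (Plat) acts mainly on fibrin surfaces, and urokinase (Plau) acts at cell surfaces when held by its receptor (Plaur). The serpins Serpine2, of clade E, and Serpinb2, of clade B, block activators. Tissue factor (F3) starts clotting by binding factor VII, and thrombomodulin (Thbd) turns thrombin from a clotting enzyme into an activator of protein C. F3 and Thbd are thus neither activators of plasminogen nor their inhibitors.

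RefSeq promoter windows on GRCm38.p6, the assembly that mm10 denotes, matched 4 of the 7 genes, and the bases before the annotated start are shown because F3, Plaur and Serpine2 differed in how they varied from library to library. Each was searched on both strands for TGANTCA, a pattern bound by AP-1 factors, and for ACGTG or GCGTG, the core bound by HIF. Capitals mark TGANTCA, and bases that lie in an annotated exon were left out at the gene end. The Serpine2 window belongs to a RefSeq start inside the gene's wider GENCODE bounds.
F3 (chr3:121723287-121723536, plus strand): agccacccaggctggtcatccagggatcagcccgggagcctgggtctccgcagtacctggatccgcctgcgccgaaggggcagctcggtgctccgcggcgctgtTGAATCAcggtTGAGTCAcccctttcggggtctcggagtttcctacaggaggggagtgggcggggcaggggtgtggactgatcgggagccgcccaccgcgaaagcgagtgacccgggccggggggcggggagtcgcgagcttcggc
Plaur (chr7:24462233-24462482, plus strand): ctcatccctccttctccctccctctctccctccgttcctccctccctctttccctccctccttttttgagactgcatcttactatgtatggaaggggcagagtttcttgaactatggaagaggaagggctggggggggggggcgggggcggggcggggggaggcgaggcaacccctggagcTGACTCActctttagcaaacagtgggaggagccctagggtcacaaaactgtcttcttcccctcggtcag
Serpinb2 (chr1:107511173-107511422, plus strand): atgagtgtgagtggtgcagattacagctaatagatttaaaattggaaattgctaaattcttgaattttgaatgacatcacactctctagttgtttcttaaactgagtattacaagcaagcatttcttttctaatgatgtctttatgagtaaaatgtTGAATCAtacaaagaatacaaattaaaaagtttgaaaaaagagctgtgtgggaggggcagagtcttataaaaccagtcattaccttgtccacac
Serpine2 (chr1:79858697-79858915, minus strand): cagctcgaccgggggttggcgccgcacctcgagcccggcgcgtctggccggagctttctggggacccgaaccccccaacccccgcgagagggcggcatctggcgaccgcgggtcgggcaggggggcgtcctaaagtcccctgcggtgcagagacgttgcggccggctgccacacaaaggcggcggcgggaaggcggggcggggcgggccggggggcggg
Counting -1 as the last base before the start, F3 held TGANTCA at -146 to -140 and again at -135 to -129, Plaur at -69 to -63 and Serpinb2 at -94 to -88, in the earlier of its RefSeq windows. The Serpine2 window held no match, and 77.6% of its bases were G or C, against 32.4% in Serpinb2. Of 32851 windows of 250 bases over all genes, 6.75% held TGANTCA. The HIF core letters were in 38.6% of all windows and in none of those shown. These are matches of letters within short windows and say nothing of binding. No window of Plat, Plau or Thbd is shown.

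Several libraries stood apart. Epas1, which encodes HIF-2α, is the gene that the genotype names as Hif2a. Its mean was 18.8 ± 3.09 FPKM over the WT libraries and 22.7 ± 6.36 FPKM over the HIF2 libraries (SD, n = 9 each), a log2 difference of 0.24 (SE 0.14, limma adjusted p = 0.246). Nothing in the sources used here says whether RNA of the overexpression allele counts towards this row. Egln3, a HIF-responsive prolyl hydroxylase gene, was between 225 and 549 FPKM in 7 HIF2 libraries, but 21.8 and 16.7 FPKM in HIF2 replicates 2 and 4, against a WT maximum of 22.2 FPKM. RNA of smooth muscle genes was high in HIF2 replicates 0 to 5 and in WT replicate 3. The sum of 8 smooth muscle markers was 996 FPKM in WT replicate 3, between 1252 and 3136 FPKM in HIF2 replicates 0 to 5 and between 49.6 and 154 FPKM in replicates 6 to 8. Neutrophil markers stood out in HIF2 replicate 0, where the 6 listed genes with a row summed to 830 FPKM, against at most 9.05 FPKM in any other library. Epithelial markers were abundant throughout, with sums between 8214 and 16890 FPKM. FPKM sums were between 686539 and 937505, and the number of reads is unknown. In bulk tissue, fewer cells of a type and less RNA per cell cannot be told apart.

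HIF2 replicate 0 carried the highest value of all 18 libraries for 5 of the 6 tested members, each more than 2 times the highest of the other 17 libraries. Of all genes tested, 2.46% did so. Plat in that library was 37.8 times the highest other library, Plau 9.35 times, Plaur 9.01 times, Serpine2 3.90 times and F3 2.91 times. Thbd was the exception at 0.807 times. In the same library neutrophil markers were also far above the others. Within HIF2, their mean had Spearman correlations of -0.03 with Plat, 0.15 with Serpine2, 0.22 with Plau, 0.43 with Plaur and 0.60 with F3. Replicate 0 also had the highest endothelial (93.5 FPKM), enteric neuron and glia (35.9 FPKM) and platelet (6.73 FPKM) marker sums of all libraries. Its epithelial sum was the lowest, at 8214 FPKM. The part of these cell types in the values was not tested. Members are therefore given below with and without replicate 0.

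**Figure D1:**
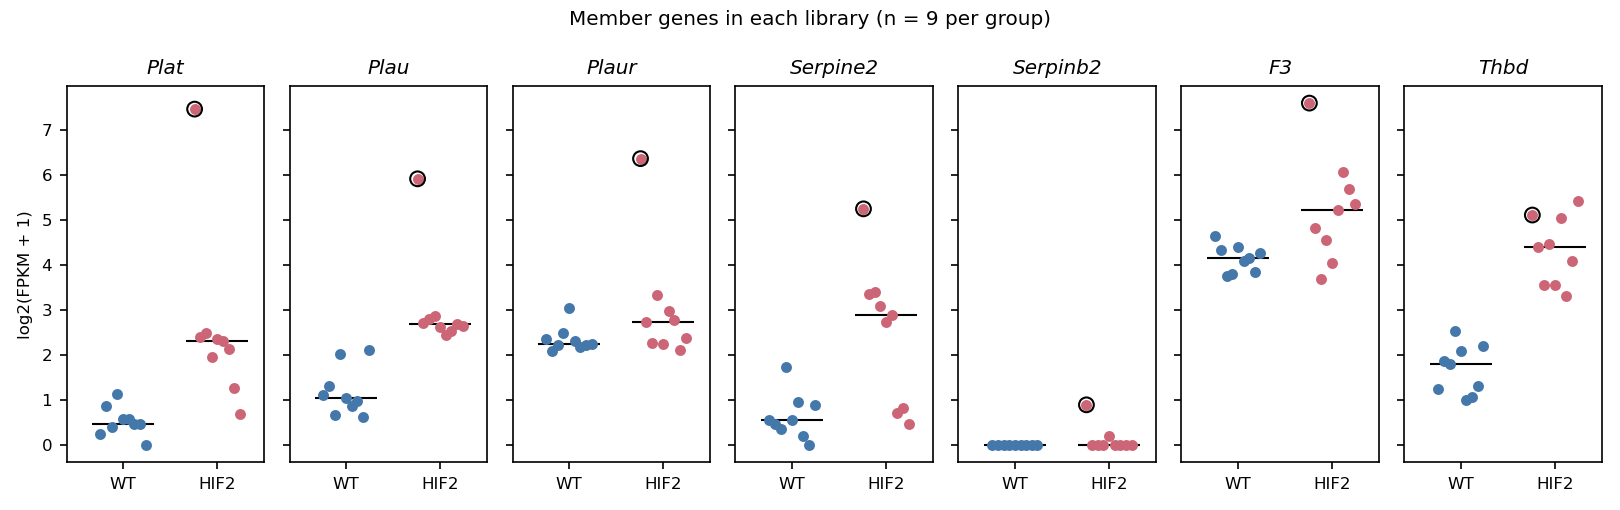
Each point is 1 library, plotted as log2(FPKM + 1) for the 7 genes in WT (blue) and HIF2 (red), n = 9 each, with horizontal lines at the group medians. Ringed points are HIF2 replicate 0, which lies far above the other HIF2 libraries for Plat, Plau and Plaur but not for Thbd, and the groups do not overlap for Plau and Thbd.

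Among the activators, Plat (chromosome 8, 22757727 to 22782844) was scarce in WT, with a lowest value of 0, a median of 0.385 and a highest value of 1.19 FPKM. In HIF2 it was lowest at 0.619, with a median of 4.003 and a highest value of 176 FPKM, the last in replicate 0. In all, 8 of the 9 HIF2 libraries lay above every WT library, and replicate 8 lay inside the WT range. Without replicate 0 the HIF2 values were at most 4.65 FPKM, with a mean of 3.18 ± 1.46 (SD, n = 8) against 0.480 ± 0.354 in WT (SD, n = 9). The log2 difference was 2.04 (SE 0.61) over all libraries, 1.43 (SE 0.24) without replicate 0 and 3.23 (SE 0.75) over all libraries with a pseudocount of 0.1. With the mean of the smooth muscle markers as a covariate it was 1.33 (SE 0.79). The 3 HIF2 libraries with little smooth muscle RNA held 3.41, 1.42 and 0.619 FPKM of Plat, and the 5 others apart from replicate 0 held between 2.86 and 4.65 FPKM.

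Plau (chromosome 14, 20836660 to 20843385), the urokinase gene, was the most even of the members in HIF2 outside replicate 0. It was lowest at 0.549, with a median of 1.08 and a highest value of 3.34 FPKM in WT. In HIF2 it was lowest at 4.49, with a median of 5.50 and a highest value of 59.4 FPKM in replicate 0. All 9 HIF2 libraries lay above all 9 WT libraries. The 8 HIF2 libraries other than replicate 0 spanned only 4.49 to 6.35 FPKM, a mean of 5.39 ± 0.592 (SD, n = 8), in replicates 6 to 8 as in replicates 1 to 5. In WT the high values were 3.07 FPKM in replicate 3 and 3.34 FPKM in replicate 8. The log2 difference was 1.83 (SE 0.38), 1.47 (SE 0.19) without replicate 0 and 1.44 (SE 0.49) with the smooth muscle covariate.

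The receptor gene Plaur (chromosome 7, 24462484 to 24475968) differed little outside replicate 0. WT values had a lowest value of 3.30, a median of 3.77 and a highest value of 7.27 FPKM, and HIF2 values 3.36, 5.68 and 81.4 FPKM. The groups overlapped, with 7 of the 9 HIF2 libraries inside the WT range and replicates 0 and 3 above it, at 81.4 and 9.04 FPKM. The log2 difference of 0.67 (SE 0.42) fell to 0.25 (SE 0.16) when replicate 0 was left out, and was 0.37 (SE 0.56) with the smooth muscle covariate. Per length, Plaur was above Plau in each WT library, whereas Plau was above Plaur in HIF2 replicates 2, 4, 7 and 8.

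Of the inhibitors, Serpine2 (chromosome 1, 79794197 to 79861180), which encodes protease nexin-1, a blocker of thrombin, urokinase and tissue-type activator, divided the HIF2 libraries. WT values had a lowest value of 0, a median of 0.468 and a highest value of 2.32 FPKM, the last in replicate 3. HIF2 replicates 1 to 5 lay between 5.69 and 9.50 FPKM and replicate 0 at 37.0 FPKM, all above every WT library. HIF2 replicates 6, 7 and 8, at 0.649, 0.763 and 0.390 FPKM, lay inside the WT range. These are the libraries with little smooth muscle RNA, and WT replicate 3 is the WT library with the most. The log2 difference was 1.89 (SE 0.51), 2.81 (SE 0.34) without replicates 6 to 8, and 0.38 (SE 0.43) with the mean of the smooth muscle markers as a covariate. With a pseudocount of 0.1 it was 2.91 (SE 0.76). Fibroblast, endothelial and enteric neuron and glia markers were also higher in HIF2 replicates 0 to 5 than in 6 to 8.

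Serpinb2 (chromosome 1, 107511423 to 107535478), an inhibitor of urokinase produced mainly by myeloid and epithelial cells under stress, was listed at 0 in all 9 WT libraries and in 7 HIF2 libraries. It was 0.865 FPKM in HIF2 replicate 0 and 0.157 FPKM in replicate 4. No fold change is given against a group at 0. Its locus overlaps that of Serpinb10 on the same strand in the annotation, so fragments may be shared between them. Serpinb10 has no row under that symbol, so such sharing could not be judged.

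The clotting genes F3 and Thbd followed different libraries. F3 (chromosome 3, 121723537 to 121735048) was the most abundant member in WT, with a lowest value of 12.6, a median of 16.98 and a highest value of 24.1 FPKM. In HIF2 the lowest value was 11.98, the median 36.6 and the highest 193 FPKM. In all, 6 HIF2 libraries lay above every WT library, at 27.2, 36.6, 40.1, 50.4, 66.3 and 193 FPKM in replicates 1, 5, 8, 7, 6 and 0. The other 3 were 22.4 FPKM in replicate 3 and 15.6 FPKM in replicate 4, inside the WT range, and 11.98 FPKM in replicate 2, just below it. The log2 difference was 1.08 (SE 0.37), and 0.78 (SE 0.27) without replicate 0. With the smooth muscle covariate it was 1.54 (SE 0.48).

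Within HIF2, F3 followed the HIF-responsive genes more closely than the smooth muscle markers. Replicates 2 and 4, in which Egln3 was low, held 2 of the 3 lowest HIF2 values of F3. Ankrd37, another HIF-responsive gene, was 32.1 and 18.6 FPKM in those libraries, while the remaining HIF2 libraries held 180 to 459 FPKM. HIF2 replicate 3 held the other of these low F3 values, 22.4 FPKM, inside the WT range. There Egln3, at 244 FPKM, and Ankrd37, at 204 FPKM, were both above every WT library. The Spearman correlation of F3 with Egln3 was 0.75 within HIF2 and 0.63 within WT (9 libraries each, a description over values of the same libraries), and with the smooth muscle marker mean -0.58 and 0.27. With Epas1 it was 0.97 within HIF2 and -0.58 within WT.

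Thbd (chromosome 2, 148404466 to 148408188) had the largest log2 difference of the members over all libraries with a pseudocount of 1. With a pseudocount of 0.1 Plat was ahead, at 3.23 against 3.09 for Thbd, and without HIF2 replicates 6 to 8 Serpine2 was, at 2.81 against 2.67. WT values had a lowest value of 1.01, a median of 2.48 and a highest value of 4.82 FPKM. HIF2 values had a lowest value of 8.96, a median of 20.1 and a highest value of 41.6 FPKM. Every HIF2 library again lay above every WT library. The highest values were 41.6 FPKM in replicate 8, which had little stromal RNA, 33.6 FPKM in replicate 0 and 32.2 FPKM in replicate 5. The log2 difference was 2.64 (SE 0.29), and between 2.48 and 2.67 without replicate 0, without replicates 6 to 8 or with the smooth muscle covariate. In HIF2 replicates 2 and 4 Thbd was 10.9 and 10.7 FPKM, among the 3 lowest HIF2 values but above the WT range. Thbd is a marker of vessel lining, and the sum of 8 endothelial markers was 4.51 to 19.7 FPKM in WT and 15.9 to 93.5 FPKM in HIF2. In HIF2 replicate 8, where Thbd was highest, that sum was 15.9 FPKM, the lowest of the HIF2 libraries and inside the WT range. The Spearman correlation of Thbd with the endothelial marker mean was 0.97 within WT and 0.23 within HIF2, and with the fibroblast marker mean 0.97 and 0.30 (9 libraries each, descriptions). With the macrophage marker mean it was 0.88 within WT and 0.03 within HIF2, and with the epithelial marker mean -0.75 and -0.60.

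**Figure D2:**
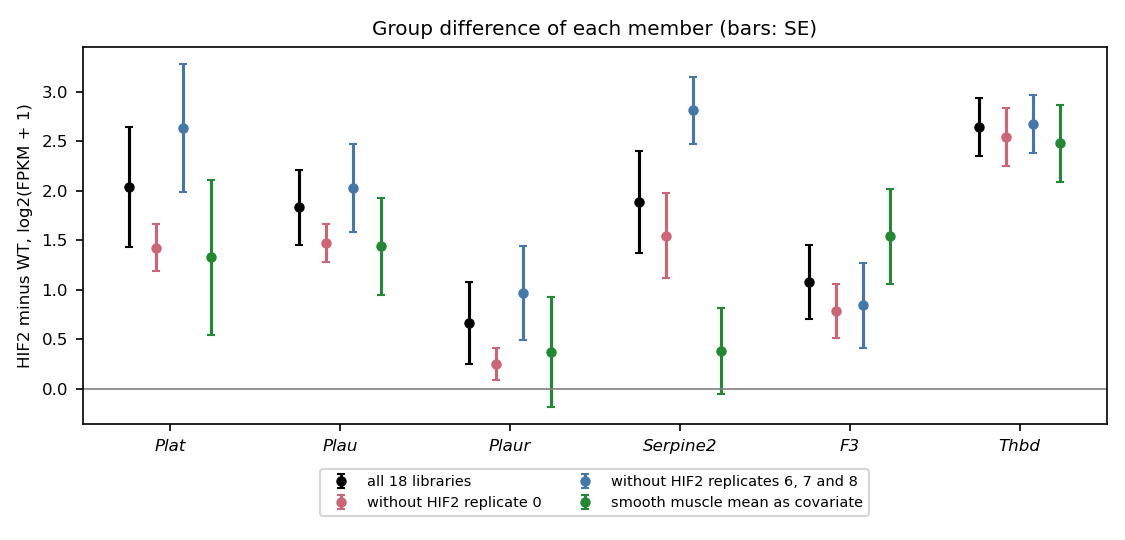
Points are the HIF2 minus WT difference in log2(FPKM + 1) for the 6 tested members, with bars of 1 SE, over all 18 libraries (black), without HIF2 replicate 0 (red), without HIF2 replicates 6, 7 and 8 (blue) and with the smooth muscle marker mean as a covariate (green). Thbd stays between 2.48 and 2.67, Serpine2 moves between 0.38 and 2.81, and Plaur is at 0.25 without replicate 0.

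Of the 6 tested members, 2 had groups that did not overlap, Plau and Thbd, and 0.758% of all genes tested had every HIF2 library above every WT library. With Plat, 3 members had at least 8 of the 9 HIF2 libraries above every WT library, as did 2.23% of all genes. Since the members were chosen with this difference known, nothing is read from these counts. By group median, the order of FPKM in WT was F3, Plaur, Thbd, Plau, Serpine2, Plat and Serpinb2. In HIF2 it was F3, Thbd, Serpine2, Plaur, Plau, Plat and Serpinb2, and without replicate 0 Plau, at a median of 5.39 FPKM, came before Plaur, at 4.96 FPKM. In WT the ranges of neighbours in that order overlapped except those of F3 and Plaur. In HIF2 the ranges of every pair of neighbours in the order over all libraries overlapped, but for Plat and Serpinb2 only through replicate 0, without which Serpinb2 was at most 0.157 FPKM.

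The members varied together to differing degrees within the groups, and 5 of the 6 tested ones shared their peak in HIF2 replicate 0. Over 15 pairs, the mean of the Spearman correlations within WT and within HIF2 ran from -0.18 for Plat and F3 to 0.67 for Serpine2 and Plau. Serpine2 and Plat reached 0.85 within HIF2 and 0.27 within WT. The genes most like each member by this mean, among all genes tested, were Cdh13 (0.950), Cacna2d1 (0.942) and Rhoj (0.925) for Serpine2. For Plat they were Ptpra (0.892), Itgb1 (0.867) and Degs1 (0.817), and for Plau Pelp1 (0.808), Ap4e1 (0.808) and Ccdc88a (0.800). For Plaur they were Wbscr16 (0.800), Ctif (0.783) and St3gal1 (0.775). For Thbd they were Lhfp (0.892), Ppp6r2 (0.808) and Thsd4 (0.808), and for F3 Blcap (0.908), Gapdh (0.850) and Cmtm7 (0.850). These are the highest of many values from 9 libraries a group, whose depth and tissue makeup are shared by all genes, and are given as descriptions. By the Pearson correlation of deviations from the group means, Ccdc88a with Plau was 0.43, Pelp1 with Plau 0.57 and Ptpra with Plat 0.68.

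**Figure D3:**
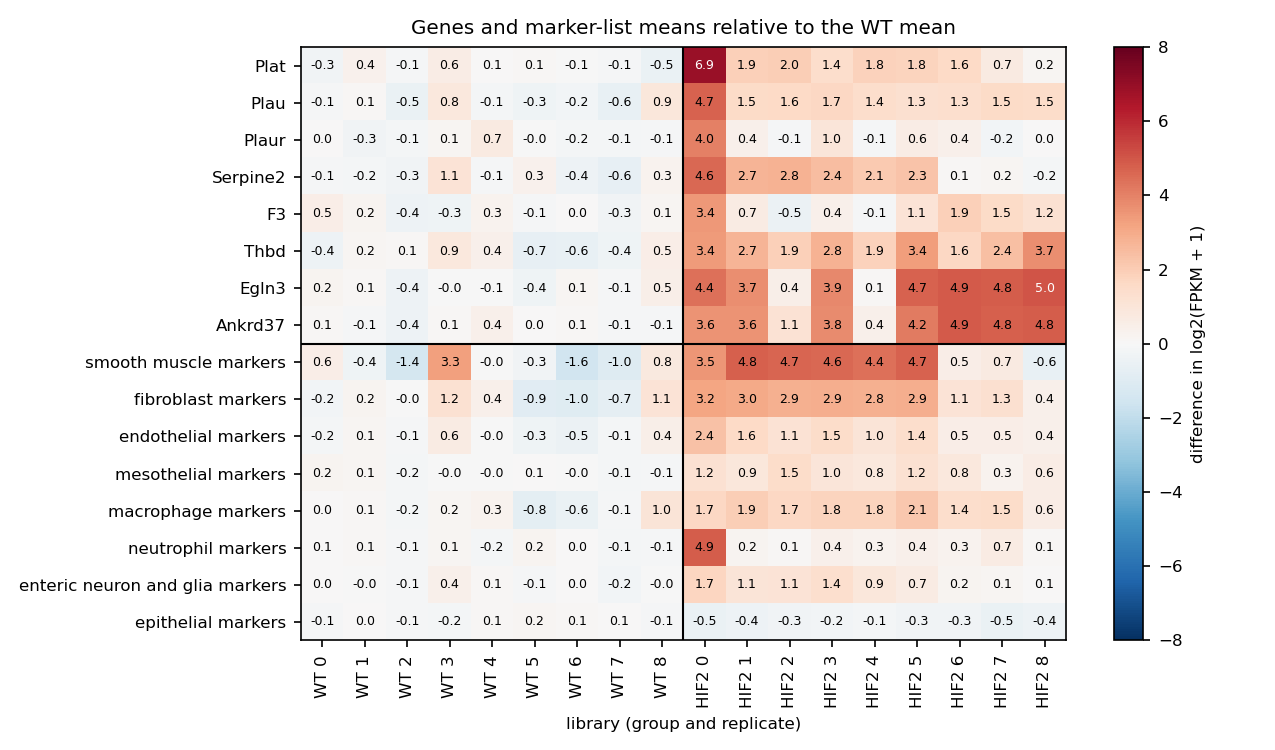
Each cell is a library's log2(FPKM + 1) minus the WT mean, for the members except Serpinb2, for the HIF-responsive genes Egln3 and Ankrd37, and, below the line, for the mean of each marker list except the platelet one; red is higher and blue lower, on the colour scale at the right. HIF2 replicates 2 and 4 are pale for F3 and Egln3, and replicates 6 to 8 are pale for Serpine2 and the smooth muscle markers. Replicate 3 is pale for F3 but not for Egln3.

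**Figure D4:**
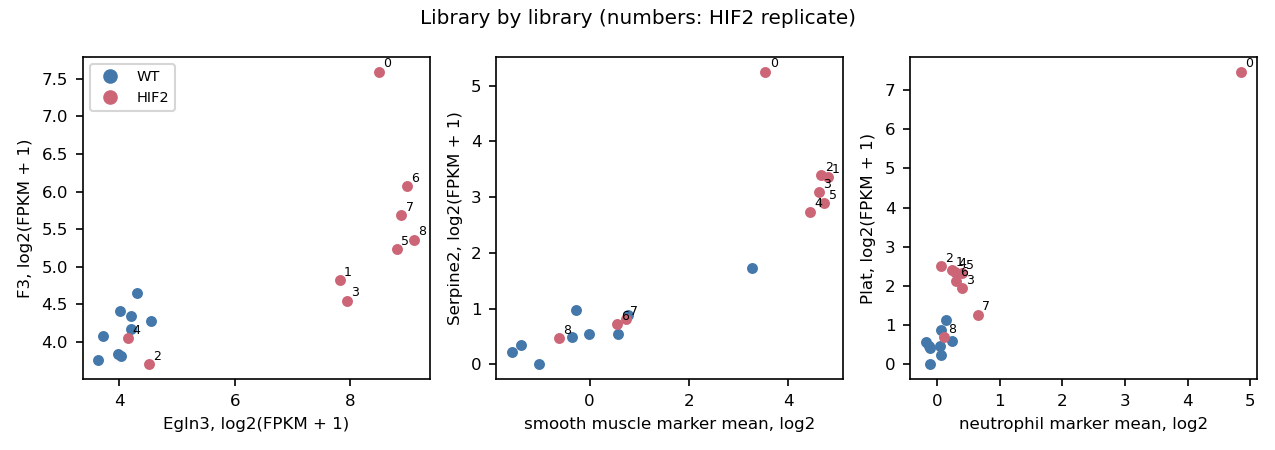
Each point is 1 library (WT blue, HIF2 red with its replicate number), with log2(FPKM + 1) of F3 against Egln3, of Serpine2 against the smooth muscle marker mean and of Plat against the neutrophil marker mean. HIF2 replicates 2 and 4 lie among or next to the WT libraries in the F3 panel, replicates 6 to 8 do so in the Serpine2 panel, and replicate 0 stands alone in the Plat panel. In the F3 panel replicate 3 lies at the WT level of F3 but far above it for Egln3.

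Other genes of the pathway were taken from 5 lists made by role, 63 genes in all, of which 61 had a row and 30 were tested. Of the 30, 17 were higher and 3 lower in HIF2 (limma adjusted p under 0.05), with a median log2 difference of 0.49. Over all genes tested, 1531 of 13976 (11%) were higher and 1557 (11.1%) lower, with a median of -0.02. The filter takes the mean over both groups, so a gene low in WT can pass it through its HIF2 values alone. Of the genes named below, this held for Mrc2, Serpinb6b, Hgf, Vwf, F13a1 and Entpd1. Their WT means ran from 0.416 FPKM for Mrc2 to 0.989 FPKM for Entpd1. It also held for the members Plat and Serpine2, with WT means of 0.480 and 0.657 FPKM. Plg, plasminogen itself, was listed at 0 in all libraries but HIF2 replicate 6, at 0.188 FPKM.

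In the list of plasminogen, its receptors and plasmin inhibitors, 6 of 11 tested genes were higher and 3 lower (median 0.34), and without HIF2 replicate 1 the number higher was 3. The higher ones included Hgf, a growth factor whose precursor urokinase-type proteases cut, by 1.61 (SE 0.38, limma adjusted p = 0.00545), and Mrc2, a collagen receptor that binds the urokinase receptor, by 0.92 (SE 0.23). Annexin A2 and its partner S100a10, a surface site for plasminogen and its tissue-type activator, were named after their values were seen. They were higher by 0.53 (SE 0.18, limma adjusted p = 0.0422) and 0.34 (SE 0.12, limma adjusted p = 0.0484), and each lost its call in 18 of 26 alternatives. The lower genes were the epithelial surface proteases St14, by -0.62 (SE 0.12, limma adjusted p = 0.00119), and Tmprss2, by -0.66 (SE 0.20), and Eno1, a glycolytic enzyme that can also bind plasminogen, by -0.24 (SE 0.06). St14 averaged 76.8 ± 6.96 FPKM over WT and 50.8 ± 12.6 FPKM over HIF2 libraries (SD, n = 9 each), with 8 HIF2 libraries below every WT library. Of the 13976 genes tested, 177 had every HIF2 library below every WT library, and the number with at least 8 below was not counted.

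On the clotting side, 3 of 6 tested genes of the tissue factor list were higher and 0 lower (median 0.59). Tfpi (chromosome 2, 84432855 to 84476775), the inhibitor of the tissue factor complex, rose from 3.65 ± 1.20 FPKM to 8.68 ± 1.93 FPKM (SD, n = 9 each), by 1.08 (SE 0.15, limma adjusted p = 0.000121), with all 9 HIF2 libraries above all 9 WT libraries. F13a1, a fibrin cross-linking enzyme subunit also made by macrophages, was higher by 1.56 (SE 0.40) and Vwf, a platelet-binding protein of endothelium, by 0.70 (SE 0.23). The call of Vwf was lost in 15 of 25 alternatives, among them without HIF2 replicate 0 (limma adjusted p = 0.0607) and with the replicate block (limma adjusted p = 0.0704). With the smooth muscle covariate the difference of Vwf was -0.00716 (SE 0.18), far smaller than its SE. Of 5 tested anticoagulant genes, 4 were higher and 0 lower (median 1.03). Procr, the protein C receptor that works beside thrombomodulin, rose from 1.05 ± 0.629 FPKM to 5.08 ± 5.62 FPKM (SD, n = 9 each), by 1.35 (SE 0.30, limma adjusted p = 0.00331). Its groups did not overlap, and it was 20.0 FPKM in HIF2 replicate 0 and at most 4.03 FPKM in the other HIF2 libraries. Entpd1, an ectonucleotidase that limits platelet activation, was higher by 1.60 (SE 0.32), the protein C cofactor gene Pros1 by 1.03 (SE 0.26) and Anxa5, which covers exposed phospholipid, by 0.60 (SE 0.16).

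Of 3 tested protease-activated receptor genes, F2r, the main thrombin receptor, was higher by 1.35 (SE 0.24, limma adjusted p = 0.000826) and 0 were lower (median -0.20). F2rl1, the receptor cut by the tissue factor complex and named after its values were seen, differed by -0.20 (SE 0.12, limma adjusted p = 0.252). Among 5 tested serpins of clades B and E outside the members, 3 were higher and 0 lower (median 0.32): Serpinb6b by 0.64 (SE 0.21), Serpinb9 by 0.50 (SE 0.16) and Serpinb1a by 0.32 (SE 0.11). Their count fell to 0 without HIF2 replicate 3 and to 1 without any 1 of WT replicates 0, 2, 3, 4 and 5 or HIF2 replicates 0, 1 and 2.

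With the smooth muscle marker mean as a covariate, the calls of Tfpi, St14 and Eno1 held and those of 15 other named genes were lost. Limma adjusted p was then 0.0788 for Procr, 0.0515 for F2r, 0.111 for Entpd1, 0.223 for Hgf, 0.414 for Pros1, 0.488 for Mrc2, 0.549 for F13a1, 0.982 for Vwf, 0.303 for Tmprss2 and 0.273 for Anxa5. A lost call need not mean a smaller difference. For Anxa2, S100a10 and Serpinb1a the difference grew, to 0.58 (SE 0.25), 0.36 (SE 0.16) and 0.39 (SE 0.14), while the SE widened. For the other genes that lost their call the difference became smaller, and for Vwf it vanished, at -0.00716 (SE 0.18). All 8 smooth muscle, all 7 fibroblast, all 8 endothelial and all 6 tested macrophage markers were higher in HIF2, and 3 of 7 epithelial markers were lower. Of the other lists, 3 of 4 tested mesothelial markers and the 1 tested enteric neuron and glia marker were higher, 0 of 4 tested neutrophil markers were called and the 1 tested platelet marker was lower. The summed macrophage markers were 6.89 to 44.4 FPKM in WT and 28.8 to 107 FPKM in HIF2, and the summed fibroblast markers 28.6 to 206 and 103 to 837 FPKM. Of the neutrophil markers, S100a8, S100a9, Il1r2 and Retnlg had a WT median of 0. Which cells held the RNA of each gene was not tested.

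**Figure D5:**
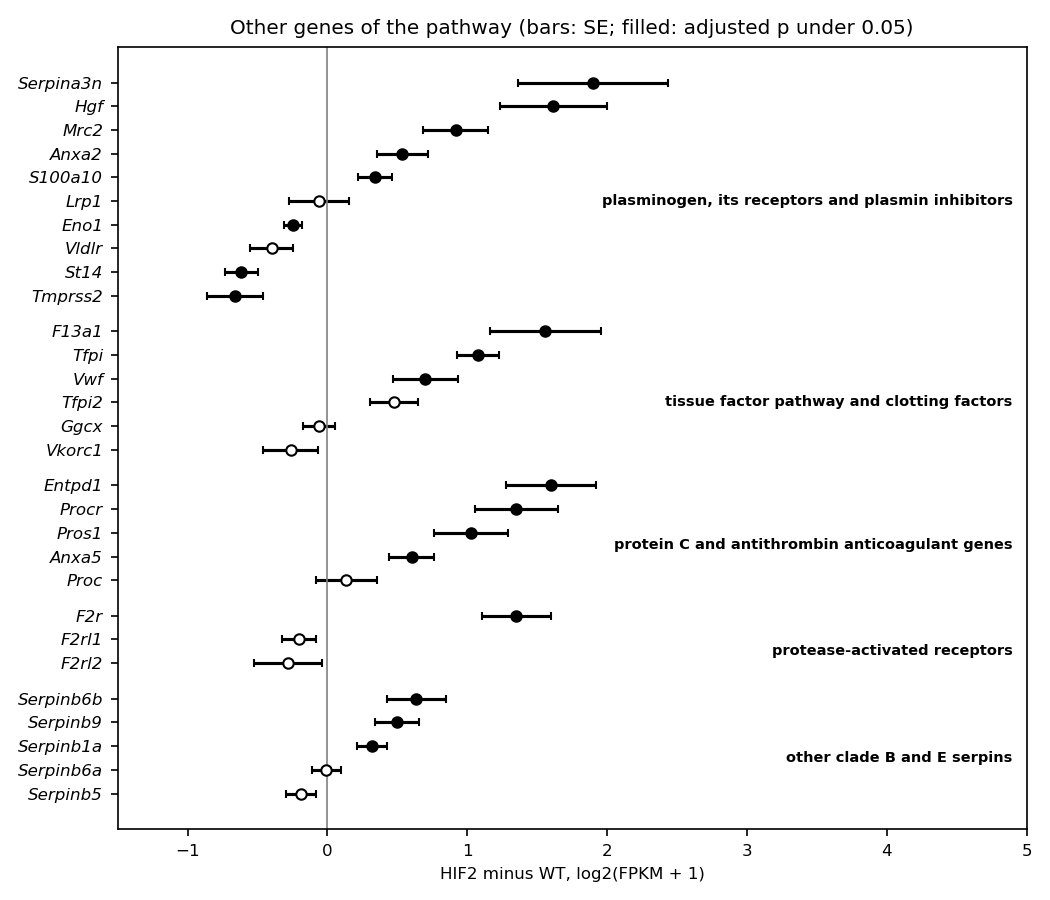
Points are the HIF2 minus WT difference in log2(FPKM + 1) for tested genes of the 5 lists, with bars of 1 SE, and filled points have a limma adjusted p under 0.05. Tfpi lies at 1.08 with a narrow bar, and the filled points left of 0 are Eno1, St14 and Tmprss2.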

How the data were processed

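Polyadenylated RNA of colon tissue was sequenced in 18 libraries, 9 per genotype, and per the labels' protocols a TruSeq RNA v2 kit was used on fresh or frozen tissue. The deposited values are FPKM, 1 column per library, made by the authors. Per the submitters' processing notes, the build was mm10 and the tools, listed without roles, included Cuffdiff 2.1.1, TopHat2 2.0.9 and Bowtie2 2.1.0.0, besides Cufflinks, TopHat and FastQC. For annotation, strand setting and read depth, nothing is stated in the sources used here. Low genes compared with WT replicate 0 gave a commonest ratio of 1 to 1.40 per library, which hints at relative depth only, so no counting interval was computed. Of 73 ribosomal protein genes, 1 was at 0 in some library, so a single 0 may be a failed estimate.

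Genes with a mean of at least 1 FPKM (13976) were fitted as log2(FPKM + 1) by limma (3.58.1, under R 4.3.3, trended prior), tested on both sides and Benjamini-Hochberg adjusted at 0.05 over all of them. The procedure was run on simulated data, with independent normal values of equal spread in both groups. That setting holds no outlying library such as HIF2 replicate 0, so it does not cover such a case. The members and lists were chosen with earlier results of these data known. Named were the members, Plg, Tfpi, Procr and F2r, up to 6 called genes per list by smallest p, shared between directions, the 3 genes most like each member, and Epas1, Egln3 and Ankrd37. The list counts include 1 gene that is not reported here. Coordinates are 1-based, from GENCODE M21 (GRCm38). Alternatives were a pseudocount of 0.1, a filter at 5 FPKM or none, rescaling each library to the same sum, quantile normalization, the replicate number as a block, the smooth muscle covariate and leaving out libraries. Figures were drawn with matplotlib 3.10.9.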

Additional observations from a re-analysis of the deposited data

Results flagged for a closer look

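Within each group of 9 libraries, 78 sets of values were examined for a library whose gap to its nearest neighbour exceeded 0.493 of the whole range, and 21 did. For normally distributed values chance flags about 1 in 20 such sets. Most sets here are FPKM, which are skewed and partly 0, and the chance rate for them was not measured. In 15 of the 21 the library was HIF2 replicate 0, and the tests share libraries.

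HIF2 replicate 0 was far above the other HIF2 libraries for Plat (gap of 0.977 of the range), Plau (0.966), Plaur (0.927), Serpinb2 (0.819), Serpine2 (0.751) and F3 (0.700). The same library stood apart for Procr (0.898), Hgf (0.801), Entpd1 (0.781), Anxa2 (0.600), Anxa5 (0.575) and Pros1 (0.498), where it was high, and for Tmprss2 (0.563), where it was low at 39.9 FPKM. It was also high for the neutrophil marker mean (0.877) and for the platelet and megakaryocyte marker mean (0.519). Thbd and Tfpi were not flagged in HIF2.

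Of the other flags, WT replicate 3 was high for Serpine2 (0.586), for the smooth muscle marker mean (0.515) and for the enteric neuron and glia marker mean (0.508). WT replicate 4 was high for Plaur (0.655), at 7.27 FPKM. HIF2 replicate 8 was low for the macrophage marker mean (0.524), and HIF2 replicate 6 was the only HIF2 library with Plg above 0 (1).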

How the results depend on the processing

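The log2 difference of each of the 6 tested members kept its direction in all alternatives in which that member was tested. Serpine2, with a mean of 4.62 FPKM over all libraries, did not pass the filter at 5 FPKM. With the smooth muscle covariate the log2 difference was 0.38 for Serpine2 (SE 0.43), 1.33 for Plat (SE 0.79), 1.44 for Plau (SE 0.49) and 0.37 for Plaur (SE 0.56). For Thbd it was 2.48 (SE 0.39) and for F3 1.54 (SE 0.48). A pseudocount of 0.1 gave 3.23 for Plat, 2.91 for Serpine2, 2.44 for Plau, 3.09 for Thbd, 1.11 for F3 and 0.73 for Plaur. Leaving out 1 library at a time gave ranges of 1.43 to 2.27 for Plat, 1.47 to 1.95 for Plau, 0.25 to 0.78 for Plaur, 1.55 to 2.14 for Serpine2, 0.78 to 1.27 for F3 and 2.51 to 2.77 for Thbd. Keeping the genes tested fixed while leaving out HIF2 replicate 0, an alternative chosen after seeing the data, gave 1.55 for Serpine2 and 0.25 for Plaur. Over all genes, 640 were higher with a filter at 5 FPKM, 2407 with no filter and 913 with the covariate, against 1531. With the filter at 5 FPKM 1256 were lower, and 994 were lower with the covariate, against 1557.

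With the covariate the numbers higher were 1 in the plasminogen list, 0 in the anticoagulant list, 0 among protease-activated receptors and 0 among other serpins. With the filter at 5 FPKM, which tests fewer genes, they were 3, 2, 0 and 1, and 1 in the tissue factor list. With no filter, 2 protease-activated receptors were higher, and the other serpins gave 1 with rescaling to equal sums and 1 with quantile normalization. Leaving out 1 library gave 3 to 6 higher in the plasminogen list (3 without HIF2 replicate 1), and 0 to 3 among other serpins, for which 1 remained without any 1 of WT replicates 0, 2, 3, 4 and 5 or HIF2 replicates 0, 1 and 2. Tfpi and St14 kept their call in all 26 alternatives. Vwf lost its call in 15, and with the covariate its difference was -0.00716 (SE 0.18). Eno1 lost its call with quantile normalization (limma adjusted p = 0.0542). The cause of these changes was not tested.

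The replicate numbers do not pair the libraries by the labels. Same-numbered libraries deviated from their group means with correlations of -0.033 to 0.112, 1 of 9 pairs over 0.1, and 0 of the 9 WT libraries correlated best with the HIF2 library of its own number. With the replicate block, 1355 genes were higher and 1345 lower. The values are FPKM with unknown depth, so low genes such as Plat in WT and Serpinb2 carry a counting error that could not be estimated.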
